A study of Mus musculus with 5 samples.

Results

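Granule neurons are the small glutamatergic cells that make up most neurons of the cerebellum, and 6 genes used as markers of their mature state were followed in the cerebella of Yy1 cKO mice: Fat2, Car4, Chn2, Eps8, Mab21l1 and Calb2. The 6 were a given list of symbols, and each matched 1 of the 55421 gene identifiers in the count table through the GENCODE M21 annotation of GRCm38. Bulk RNA-seq of whole cerebella at postnatal day 14 gave 3 Yy1 cKO and 2 control libraries. The Yy1 cKO mice were Pcp2 Cre/+; Yy1 fx/fx and the controls were their Pcp2 Cre/+; Yy1 fx/+ littermates, so both groups carried the Cre allele, at least 1 floxed copy of Yy1 and no other stated allele or treatment, and both were described as mixed in sex. The Pcp2 promoter drives Cre in Purkinje cells, so granule neurons are not the cells in which Yy1 was meant to be lost. The sources do not say whether the libraries came from separate animals, so p-values measure the spread between these libraries, which may be in part technical.

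Granule neurons are born from dividing precursors at the surface of the cerebellum, move inward past the Purkinje cells and settle in the internal granular layer. Their axons become the parallel fibres, which carry glutamate signals to the dendrites of Purkinje cells. In mice this happens largely in the first postnatal weeks. FAT2 is a giant cadherin found along parallel fibres, and CAR4 is a carbonic anhydrase held on the outer cell surface by a lipid anchor. CHN2 (beta-chimaerin) switches off the GTPase Rac, and EPS8 caps and bundles actin filaments. Calbindin 2 (calretinin) binds calcium in the cytoplasm of granule neurons and of unipolar brush cells, and MAB21L1 is a protein of developing eye and brain.

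The libraries held 18872728 to 20305705 counts in Yy1 cKO and 17424860 and 18007663 in the controls. Levels below are CPM, counts relative to library size, scaled with TMM, the edgeR library scaling, unless another scale is named, and 1 count was worth 0.0503 to 0.0558 CPM. Yy1 itself stood at 73.4, 81.7 and 75.8 CPM in Yy1 cKO and at 74.6 and 73.7 CPM in the controls, and these whole-tissue counts do not separate the floxed part of the gene or the cells with Cre, so they check the labels little. Yy1 cKO 3 stood apart from the other libraries on the second principal component of log2 CPM (18.5% of the variance), while the first (59.3%) separated the groups. A gene counts as having risen or fallen in Yy1 cKO where the edgeR quasi-likelihood test gave a Benjamini-Hochberg adjusted p under 0.05 over all 20388 genes tested. By this rule 10.7% of genes rose and 12.6% fell, together 23.4%, and the median log2 fold change of all genes was -0.00086. With libraries scaled by their totals alone, 29.8% of the called genes were higher in Yy1 cKO, against 45.9% with TMM.

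The 3 markers that rose in Yy1 cKO (Car4, Chn2 and Fat2) are also the 3 with promoter windows in the RefSeq table used here. These are printed to show what letters lie at the start sites listed there, some of which are inside the gene. Each window runs from 250 bases before to 50 bases after a RefSeq start site on GRCm38.p6, 5′ to 3′ on the strand of the gene, and capitals mark matches to the motifs searched. Fat2 lies at chr11:55312208-55312507 on the minus strand, Car4 at chr11:84957504-84957803 on the plus strand, and the first and second of 4 Chn2 windows at chr6:54039682-54039981 and chr6:54264608-54264907 on the plus strand.
Fat2: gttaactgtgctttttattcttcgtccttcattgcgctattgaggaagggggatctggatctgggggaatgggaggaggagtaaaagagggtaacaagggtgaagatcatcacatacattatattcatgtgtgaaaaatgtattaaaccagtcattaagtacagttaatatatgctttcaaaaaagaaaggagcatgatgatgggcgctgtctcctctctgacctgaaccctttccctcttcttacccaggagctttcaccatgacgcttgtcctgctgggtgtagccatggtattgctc
Car4: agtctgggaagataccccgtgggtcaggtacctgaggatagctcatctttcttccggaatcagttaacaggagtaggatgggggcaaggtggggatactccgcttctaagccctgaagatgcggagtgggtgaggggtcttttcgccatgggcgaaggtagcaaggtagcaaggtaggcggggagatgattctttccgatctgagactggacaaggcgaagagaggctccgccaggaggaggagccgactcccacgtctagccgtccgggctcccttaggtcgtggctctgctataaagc
Chn2 first window: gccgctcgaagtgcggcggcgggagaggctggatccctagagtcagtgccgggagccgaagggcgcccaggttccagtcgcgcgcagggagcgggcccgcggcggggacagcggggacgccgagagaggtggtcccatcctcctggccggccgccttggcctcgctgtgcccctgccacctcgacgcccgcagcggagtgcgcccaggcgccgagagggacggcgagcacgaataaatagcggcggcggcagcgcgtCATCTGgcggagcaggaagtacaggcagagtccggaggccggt
Chn2 second window: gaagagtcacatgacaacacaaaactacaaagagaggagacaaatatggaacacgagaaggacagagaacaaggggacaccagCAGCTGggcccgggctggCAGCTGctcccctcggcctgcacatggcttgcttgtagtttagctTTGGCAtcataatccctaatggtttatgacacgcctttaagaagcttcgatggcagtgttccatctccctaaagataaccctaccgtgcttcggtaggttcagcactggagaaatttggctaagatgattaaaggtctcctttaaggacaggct

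Their base composition differed widely. The first Chn2 window was 73.3% G or C with 39 CpG pairs, and 94.5% of all 32851 windows had a lower G and C content. Car4 had 57.3% and 15 CpG pairs, near the median of 52.7% for all windows, and Fat2 had 43.7% and 4 CpG pairs. The motifs, read on both strands, were AANATGGC (the core that YY1 binds, in 6.05% of all windows), TTGGCA (the short site of nuclear factor I, 14.1%), CAGATG and CAGCTG (E-boxes, bound by bHLH factors of neurons, 17.2% and 16.3%) and TGACGTCA (the cyclic AMP response element, 1.79%). The Fat2 and Car4 windows held none of these letters, and the AANATGGC core was in none of the 4 Chn2 windows. The first Chn2 window held CATCTG, the reverse complement of CAGATG, 8 bases into the transcript. The second, at an inner start 225304 bases downstream of the outer annotated start of the gene, held CAGCTG at 167 and 149 bases before its start site and TTGGCA at 104 bases before it. The Fat2 window also belongs to an inner start, 24307 bases from the outer annotated start. The bases just before it are rich in c and t and end in ag, the form of an intron end. This window may therefore not be a promoter. Its base composition and lack of motifs are not read as those of the outer Fat2 start, which has no window here. The counts are per gene and do not show which start site was used.

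Of the 6 markers, 3 rose in Yy1 cKO, 1 fell and 2 did not pass the test. Against the background of 10.7% of genes rising and 12.6% falling, this is 3 of 6 and 1 of 6, with all 6 markers having passed the filter on low counts. The median log2 fold change of the 6 was 0.29. Without Yy1 cKO 3, the library that stood apart, 4 markers rose and 1 fell. Because the libraries are of whole tissue, more or fewer granule cells and more or less RNA per cell cannot be told apart. The groups did not overlap for 4 of the 6 markers, 3 higher and 1 lower in Yy1 cKO. Among all genes tested 25.2% were higher with no overlap and 27% lower with no overlap.

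**Figure D1:**
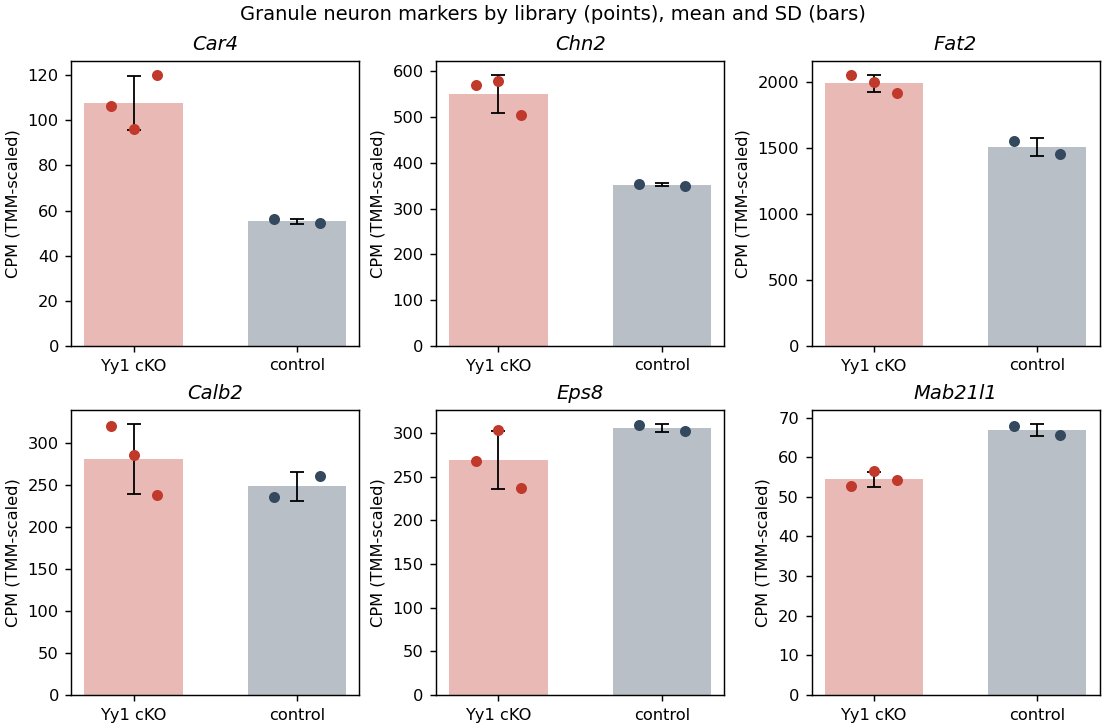
TMM-scaled CPM (y axis, from 0) of the 6 markers in the 3 Yy1 cKO and 2 control libraries; points are libraries, bars the group mean and error bars the SD. Car4, Chn2 and Fat2 are higher in every Yy1 cKO library than in either control, Mab21l1 is lower in every one, and Calb2 and Eps8 overlap.

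Car4 (ENSMUSG00000000805.18, chromosome 11, 84957786 to 84966044, plus strand) showed the largest change of the 6. It stood at 106, 96.2 and 120.3 CPM in Yy1 cKO and at 56.1 and 54.4 CPM in the controls. The lowest Yy1 cKO library was thus well above both controls, and the 2 controls lay close together. The mean was 108 ± 12.1 CPM in Yy1 cKO and 55.3 ± 1.18 CPM in controls (SD, n = 3 and 2), a 1.95-fold rise with a log2 fold change of 0.96 ± 0.092 (SE, adjusted p = 0.00013). The log2 fold change of Car4 was exceeded by 2.4% of the genes tested. Car4 was highest in Yy1 cKO 3, the library that stood apart, and without it the log2 fold change was 0.88.

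Car4 is also known from the endothelium of brain capillaries, so endothelial markers were set beside it. Of 10 endothelial markers, all measured and none at 0, 2 rose and 4 fell, and their summed level was 190 to 203 CPM in Yy1 cKO and 206 to 221 CPM in controls. When either control was left out, 1 of them rose and 2 fell, and without Yy1 cKO 2 the counts were 1 and 3. Cldn5, a tight junction protein, fell by 1.01 on the log2 scale, and Kdr, a VEGF receptor, fell to 16.7 CPM in Yy1 cKO, against 33.3 CPM in controls. Slco1a4, an organic anion transporter of brain capillaries, rose to 45.2 CPM in Yy1 cKO, against 23.3 CPM in controls (log2 fold change 0.96 ± 0.096). The ranges of the summed endothelial level came close, with 203 CPM the highest in Yy1 cKO and 206 CPM the lowest in controls. Single endothelial markers moved both ways. The part of the endothelium in the Car4 value was not tested.

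The other carbonic anhydrases moved both ways. Of 15 such genes 12 were tested, 3 rose and 1 fell, and with libraries scaled by their totals alone 1 rose and 1 fell. None rose when control 1 was left out, 1 rose without Yy1 cKO 1 or control 2, 2 rose without Yy1 cKO 2, and 6 rose without Yy1 cKO 3. Car8, which has lost its catalytic activity and marks Purkinje cells, had the highest level per length of the family, at 561 TPM (counts per base of annotated exon, scaled to one common sum in every library) in Yy1 cKO and 552 TPM in controls, with a log2 fold change of 0.10 ± 0.26 (adjusted p = 0.82). Car2, a cytosolic enzyme of oligodendrocytes, rose by 0.47 ± 0.097 on the log2 scale, Car11 by 0.36 ± 0.099 and Car10 by 0.22 ± 0.060. Car3 fell to 4, 1 and 2 counts in Yy1 cKO, against 40 and 34 counts in controls.

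Fat2 (ENSMUSG00000055333.14, chromosome 11, 55250609 to 55336564, minus strand) had the highest read count of the markers. It stood at 2052, 2000.3 and 1921 CPM in Yy1 cKO and at 1556 and 1458 CPM in the controls. All 3 Yy1 cKO libraries were above both controls. Its mean was 1991 ± 66.1 CPM in Yy1 cKO and 1507 ± 69.3 CPM in controls (SD, n = 3 and 2). This is a 1.32-fold rise, 0.40 ± 0.070 on the log2 scale (SE, adjusted p = 0.0029). It no longer passed when control 2 was left out (log2 fold change 0.36, adjusted p = 0.062), where the remaining control is assumed to vary like the Yy1 cKO libraries.

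The other members of the FAT family moved in different directions. Of 5 genes for FAT and Dachsous cadherins 1 rose and 3 fell. Fat1, an atypical cadherin of many cell types, rose by 0.44 ± 0.10 on the log2 scale, with 118 TPM in Yy1 cKO and 92.0 TPM in controls, against 326 TPM in Yy1 cKO and 260.0 TPM in controls for Fat2. Fat4 (-0.68 ± 0.10), its ligand gene Dchs1 (-0.97 ± 0.13) and Dchs2 (-0.85 ± 0.19) fell. For Fat3 the difference was 0.02 ± 0.056 on the log2 scale (adjusted p = 0.84). The rise of Fat1 was lost when Yy1 cKO 1 or either control was left out.

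Chn2 (ENSMUSG00000004633.17, chromosome 6, 54039554 to 54301810, plus strand) rose as well. It stood at 571, 580 and 504 CPM in Yy1 cKO and at 355 and 350.4 CPM in the controls. The gap between the groups was wider than the spread within either. The mean was 551 ± 41.4 CPM in Yy1 cKO and 353 ± 3.18 CPM in controls (SD, n = 3 and 2), a 1.56-fold rise or 0.65 ± 0.074 on the log2 scale (SE, adjusted p = 0.00027). The antisense transcript 9130019P16Rik shares 9.5% of the exon bases of Chn2, but had only 39 to 48 counts in Yy1 cKO and 25 and 34 in controls.

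Genes of the Rac switch, on which CHN2 acts, were set beside it. Of 8 genes (Chn1, the Rac genes and exchange factors) 1 rose and 1 fell, the median being -0.0035 on the log2 scale, and with libraries scaled by their totals alone 1 rose and 3 fell. Tiam1, an exchange factor that turns Rac on and that is also in the list of other granule genes, rose to 446 CPM in Yy1 cKO, against 278 CPM in controls (log2 fold change 0.68 ± 0.080). Rac3 fell by 0.68 ± 0.14 on the log2 scale. No gene of this list fell when control 2 was left out, and 3 rose and 3 fell without Yy1 cKO 3. Chn1, the paralog of Chn2, stood at 22.7 TPM in Yy1 cKO and 19.3 TPM in controls, far below the 225 and 152 TPM of Chn2, and did not pass the test (0.32 ± 0.33, adjusted p = 0.57).

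Eps8 (ENSMUSG00000015766.14, chromosome 6, 137477245 to 137654876, minus strand) did not pass the test. It stood at 268, 303 and 237 CPM in Yy1 cKO and at 309 and 302 CPM in the controls. Yy1 cKO 2 lay between the controls, and the other Yy1 cKO libraries lay below them. The log2 fold change was -0.18 ± 0.094 (adjusted p = 0.21), with a 95% interval of -0.40 to 0.03. Without Yy1 cKO 2 it was -0.27 and passed (adjusted p = 0.045). Of its relatives and partners 1 of 6 rose, Baiap2, an actin regulator that bends membranes (0.26 ± 0.079), and none fell. Baiap2 did not pass with DESeq2, with libraries scaled by their totals alone, with Xist as a covariate, or when Yy1 cKO 1, Yy1 cKO 2 or either control was left out. Abi1, which forms a complex with EPS8, differed by 0.07 ± 0.066 on the log2 scale (adjusted p = 0.50). Eps8l2, the paralog with the highest level per length, had 8.53 TPM in Yy1 cKO and 9.78 TPM in controls.

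Calb2 (ENSMUSG00000003657.9, chromosome 8, 110137502 to 110168210, minus strand) varied most among the Yy1 cKO libraries relative to its mean. It stood at 320.2, 286 and 237 CPM in Yy1 cKO and at 236 and 261 CPM in the controls. Yy1 cKO 1 and 2 were above both controls and Yy1 cKO 3 lay between them. The log2 fold change was 0.18 ± 0.13 (adjusted p = 0.37), with a 95% interval of -0.12 to 0.48. Without Yy1 cKO 3, the library that stood apart, it was 0.29 and passed (adjusted p = 0.0057).

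Unipolar brush cells, which also make calretinin, were represented by 6 markers, of which 5 were tested, 1 rose, none fell and none was at 0. Their summed level was 225 to 288 CPM in Yy1 cKO and 184 to 202 CPM in controls. Eomes, the transcription factor that defines these cells, had a log2 fold change of -0.01 ± 0.16, with an adjusted p of 0.96, while Tmem163, a zinc transporter, rose by 0.59 ± 0.11. None of the unipolar brush cell markers passed when either control was left out, and 2 rose without Yy1 cKO 3. The part of unipolar brush cells in the Calb2 value was not tested. Among related calcium buffers, Pvalb (parvalbumin, of Purkinje cells and interneurons) rose to 318 CPM in Yy1 cKO, against 251 CPM in controls, but did not pass when Yy1 cKO 1, Yy1 cKO 2 or control 2 was left out. Calb1 differed by -0.02 ± 0.099 on the log2 scale (adjusted p = 0.93), and Necab1 (-0.49 ± 0.11) and Necab2 (-2.30 ± 0.28) fell. Without control 2 only 1 gene of this list fell, and without Yy1 cKO 3 it was 3.

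Mab21l1 (ENSMUSG00000056947.5, chromosome 3, 55782510 to 55785001, plus strand) was the marker that fell. It stood at 52.7, 56.4 and 54.2 CPM in Yy1 cKO and at 68.0 and 65.7 CPM in the controls. No Yy1 cKO library reached either control. The mean was 54.5 ± 1.89 CPM in Yy1 cKO and 66.8 ± 1.61 CPM in controls (SD, n = 3 and 2), or -0.30 ± 0.062 on the log2 scale (SE, adjusted p = 0.0078). It did not pass when control 1 (adjusted p = 0.098) or control 2 (adjusted p = 0.062) was left out.

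The count of Mab21l1 carries a limit of its own, because the gene lies inside Nbea, a large neuronal gene on the opposite strand, and 39.4% of its exon bases are also annotated as Nbea exon. The libraries were strand-specific per the labels, but the strand setting of the counting is not given in the sources used here. Nbea stood at 561, 554 and 533 CPM in Yy1 cKO and at 725 and 689 CPM in controls, and fell by 22.3%, beside 18.5% for Mab21l1. Mab21l2, the paralog, had 1.87 CPM in Yy1 cKO and 2.99 CPM in controls and did not pass (-0.67 ± 0.27, adjusted p = 0.11).

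Levels per length depend on the transcript length assumed. With all annotated exon bases as the length, the means in Yy1 cKO were 383 ± 54.3 TPM for Calb2, 326 ± 11.2 for Fat2, 225 ± 12.5 for Chn2, 130.4 ± 18.3 for Car4, 51.9 ± 1.21 for Mab21l1 and 51.7 ± 4.88 for Eps8. In controls they were 356 ± 15.2 TPM for Calb2, 260.0 ± 19.3 for Fat2, 152 ± 5.66 for Chn2, 70.4 ± 3.49 for Car4, 67.2 ± 3.51 for Mab21l1 and 62.0 ± 2.74 for Eps8. With this length the order was the same in both groups. In Yy1 cKO the ranges of Calb2 and Fat2 overlapped, as did those of Mab21l1 and Eps8. In controls Car4 and Mab21l1 overlapped, and the other neighbours in the order did not. With the longest coding transcript as the length, an alternative chosen after seeing the data, Chn2 stood at 439 TPM in Yy1 cKO and 296 TPM in controls, above Fat2 in both groups. Eps8, with 4567 bases in that transcript against 12355 in all its annotated exons, stood at 140 TPM in Yy1 cKO and 168 TPM in controls, above Mab21l1. Car4 then stood at 204 TPM in Yy1 cKO and 110.2 TPM in controls, above Eps8 in Yy1 cKO and below it in controls, so with this length the order differed between the groups.

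**Figure D2:**
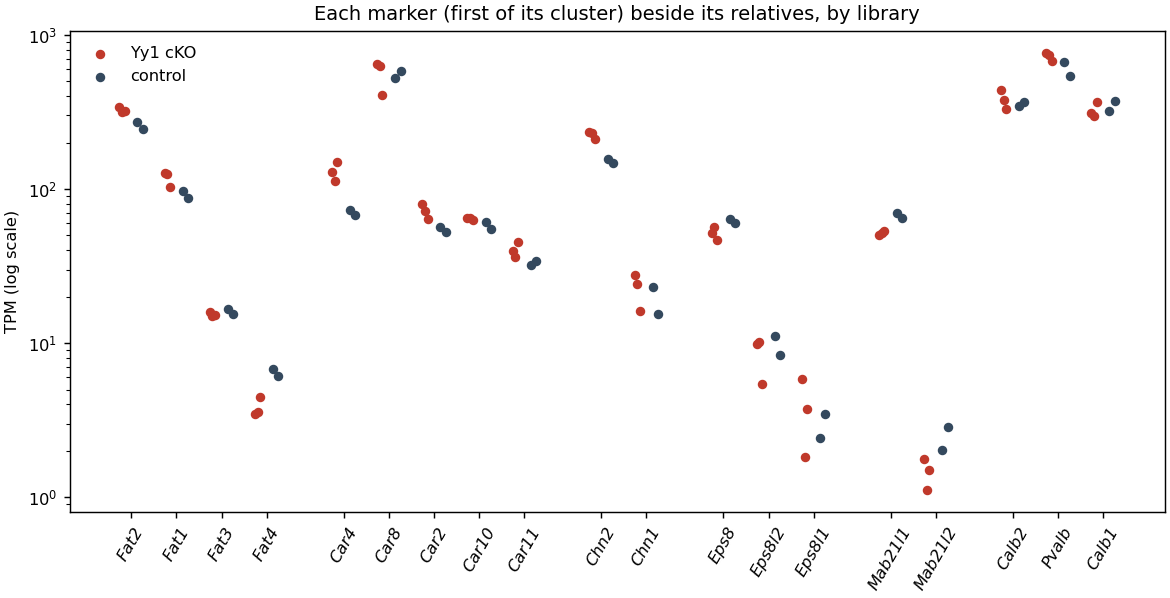
TPM (log scale, y axis) of each marker and its relatives (x axis) in every Yy1 cKO and control library; each point is a library. Fat2, Chn2, Eps8 and Mab21l1 lie above their plotted relatives in all libraries, while Car4 lies below Car8 and Calb2 below Pvalb.

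All being used as markers of 1 cell type, they were also compared with each other inside each library, where the scaling of the libraries cancels. The log2 ratio of Car4 to Mab21l1 was 1.01, 0.76 and 1.14 in Yy1 cKO and -0.27 and -0.27 in controls. The ratio thus turned round between the groups, with Car4 reads outnumbering Mab21l1 reads in each Yy1 cKO library and Mab21l1 reads outnumbering Car4 reads in both controls. The log2 ratio of Chn2 to Eps8 was 1.09, 0.94 and 1.09 in Yy1 cKO and 0.20 and 0.21 in controls. Of the 15 pairs of markers, 13 had ratios that did not overlap between the groups, and 11 had the smallest p that an exact two-sided permutation test can give with 3 against 2 libraries, 0.1 (0.14 adjusted over the 15 pairs). No pair could pass the threshold in this design. The 15 pairs share the same 6 genes, and the share of non-overlapping ratios over all pairs of genes was not computed. The count of pairs is therefore not read as a result about the markers. The 2 pairs that overlapped were Fat2 with Calb2 (difference 0.23, exact permutation p = 0.3) and Eps8 with Mab21l1 (0.10, exact permutation p = 0.4).

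The other granule genes moved both ways. Of 24 such genes 10 rose, 5 fell and 9 did not pass, with a median log2 fold change of 0.10, beside 0.29 for the 6 markers and -0.00086 for all genes. By smallest p they were Kcnd2, a potassium channel of granule cell bodies (0.64 ± 0.056), Pax6, a transcription factor of the granule lineage that is high in precursors (-0.55 ± 0.051), Gabrd, the tonic GABA receptor subunit (0.60 ± 0.061), Zic4 (-0.62 ± 0.064), Grin2c, the NMDA receptor subunit that appears as granule cells mature (0.71 ± 0.079), and Tiam1. Gabra6, the GABA receptor subunit most specific to granule neurons, was chosen after its value was seen and rose to 623 CPM in Yy1 cKO, against 462 CPM in controls. The genes that fell were Pax6, Zic4, Neurod2, Kcnk9 and Cadps2, and Neurod2, Kcnk9 and Cadps2 are named to complete this count. The summed level of the 24 genes was 9773 to 10846 CPM in Yy1 cKO and 9028 and 9199 CPM in controls. None of the counts of this list moved by more than 1.5 times in any alternative run.

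**Figure D3:**
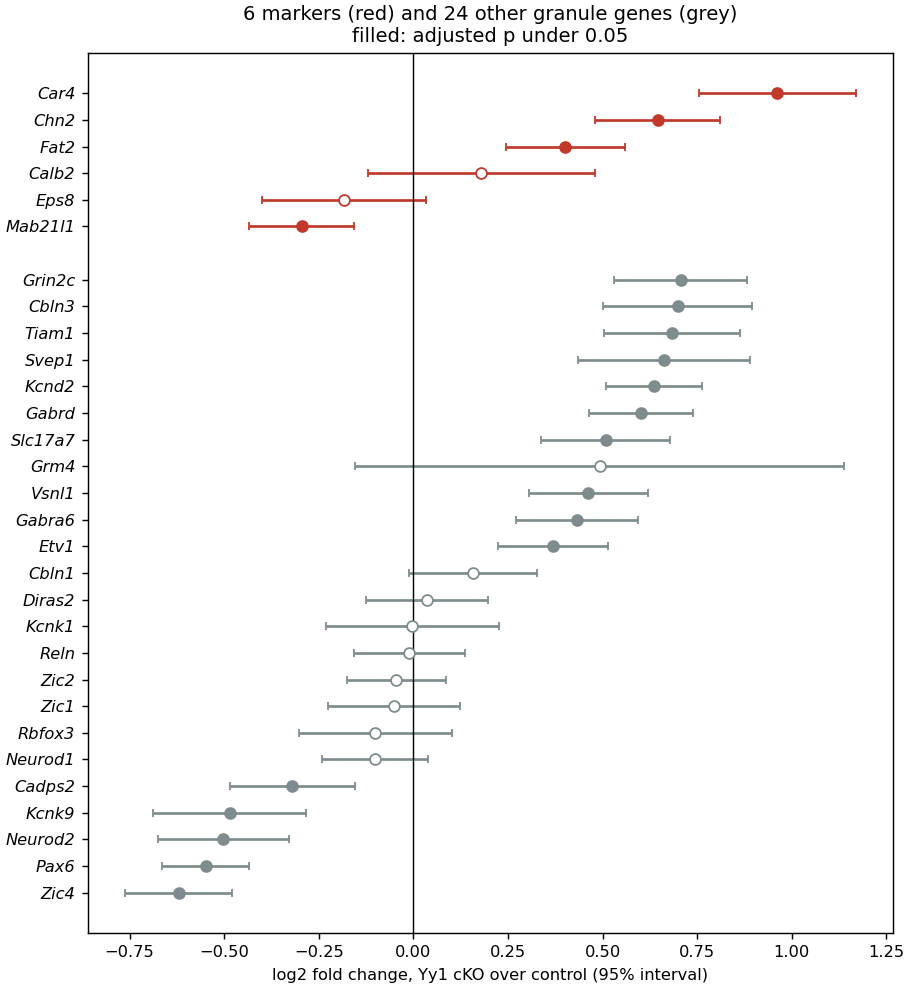
Log2 fold change of Yy1 cKO over control (x axis) with its 95% interval for the 6 markers (red) and 24 other granule genes (grey), ordered within each set; filled points passed the test. Both sets run from genes that rose, led by Car4 and Grin2c, to genes that fell, Mab21l1 and Zic4 at the low end.

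Relative to the geometric mean of those 24 genes in the same library, the markers moved in different directions. Car4 stood at -1.65, -1.83 and -1.38 on the log2 scale in Yy1 cKO and at -2.38 and -2.46 in controls, a difference of 0.80. The difference was 0.49 for Chn2 and 0.25 for Fat2, and none of these 3 overlapped between the groups. Eps8 stood at -0.32, -0.18 and -0.40 in Yy1 cKO and at 0.07 and 0.003 in controls, so on this scale its groups did not overlap and it was lower by 0.34. Mab21l1 was lower by 0.44. The exact two-sided permutation p was 0.1 for each of these 5, the smallest possible. The share of all genes whose groups would not overlap on this scale was not computed. In plain CPM it was 25.2% higher and 27% lower, so the count of markers is not read as a result about them. Calb2 differed by 0.02 (exact permutation p = 0.9), and its groups overlapped.

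**Figure D4:**
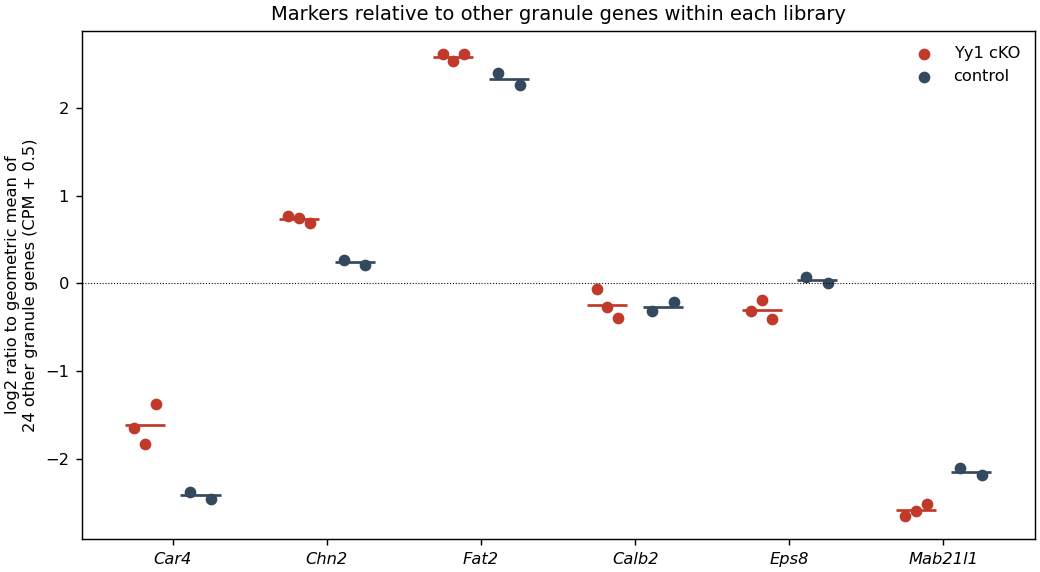
Log2 ratio of each marker to the geometric mean of 24 other granule genes in the same library (y axis); points are libraries and lines group means, with Yy1 cKO left of control. Car4, Chn2 and Fat2 are higher in Yy1 cKO, Eps8 and Mab21l1 lower, and Calb2 differs by 0.02.

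Genes of precursors and newborn granule cells were much lower beside these changes. Of 22 such genes 20 fell and none rose, with the median being -2.21 on the log2 scale, and their summed level was 793 to 878 CPM in Yy1 cKO and 2065 and 2196 CPM in controls. Igfbpl1 fell to 3, 1 and 2 counts in Yy1 cKO, against 646 and 575 counts in controls, and Dcx, a microtubule protein of migrating neurons, to 20.3 CPM, against 299 CPM in controls. The log2 fold change was -3.72 for Sox11, -2.12 for Marcksl1, -2.31 for Sox4 and -2.60 for Ccnd2, all of which fell. Pcna (0.04 ± 0.097) and Gli1 (0.25 ± 0.26), named to complete the count, did not pass. No gene of this list was among the 6 markers. Its part in the values of the markers, which are shares of all reads of the tissue, was not tested.

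Markers of other cell types are given as counts and summed levels. Of 10 interneuron markers 7 rose, led by Gad2, Prkcd and Gad1, and none fell. The list summed to 1239 to 1271 CPM in Yy1 cKO and 862 and 925 CPM in controls. The count that rose was 5 without Yy1 cKO 1 or Yy1 cKO 2, 6 with Xist as a covariate and 8 without Yy1 cKO 3. Of 10 Purkinje cell markers Itpr1 rose and none fell, 3 rose without Yy1 cKO 3, and the list summed to 5293 to 6270 CPM in Yy1 cKO and 4507 and 4823 CPM in controls. Of 5 nuclear neuron markers 1 rose and 1 fell, and none rose without Yy1 cKO 1. Slc17a6 fell to 16.6 CPM in Yy1 cKO, against 52.0 CPM in controls, where it made up most of the summed level. Spp1 rose to 14.2 CPM in Yy1 cKO, against 5.03 CPM in controls. The list summed to 28.5 to 41.3 CPM in Yy1 cKO and 62.3 and 63.1 CPM in controls, a drop set by Slc17a6. Tbr1, Lhx9 and Meis2 did not pass, so this drop is not read as one of nuclear neurons. Which cells the Slc17a6 reads came from was not tested. Of 10 astrocyte and Bergmann glia markers 3 rose and 1 fell, with 3614 to 4374 CPM in Yy1 cKO and 3269 and 3452 CPM in controls. Only 1 of these rose without control 2, and 2 fell without Yy1 cKO 3. The summed levels of these 4 lists did not overlap between the groups, but a sum is set largely by its most abundant genes. The median log2 fold change was 0.48 for interneuron and 0.044 for Purkinje cell markers. It was -0.53 for nuclear neuron and 0.18 for astrocyte and Bergmann glia markers. How often sums of other gene lists would not overlap was not computed.

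Of 10 oligodendrocyte markers 3 rose and 1 fell, with overlapping sums of 6681 to 7413 CPM in Yy1 cKO and 6923 and 6982 CPM in controls, and none passed in either direction without Yy1 cKO 1 or control 1. Without control 2 the counts were 1 and 0, without Yy1 cKO 2 they were 2 and 0, without Yy1 cKO 3 they were 3 and 2, and with libraries scaled by their totals alone they were 1 and 2. Of 5 oligodendrocyte precursor markers 4 fell and none rose, with 138 to 149.7 CPM in Yy1 cKO and 208 and 229 CPM in controls, but 1 fell without control 2 and 2 fell without Yy1 cKO 2 or with DESeq2. Of 5 erythroid genes, some of them near-identical globin copies, 4 rose, with 594 to 961 CPM in Yy1 cKO and 262 and 302 CPM in controls. None of them passed when either control was left out, 2 rose without Yy1 cKO 2 and 1 rose without Yy1 cKO 3. Of 4 tested choroid plexus markers 1 rose and none fell, with sums of 4.24 to 11.6 CPM in Yy1 cKO and 5.74 and 5.96 CPM in controls, and none passed when Yy1 cKO 1 or either control was left out. None of 8 microglia markers passed, and their sums overlapped, at 75.7 to 107 CPM in Yy1 cKO and 87.5 and 93.6 CPM in controls. The part of these cells in the marker values was not tested.

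**Figure D5:**
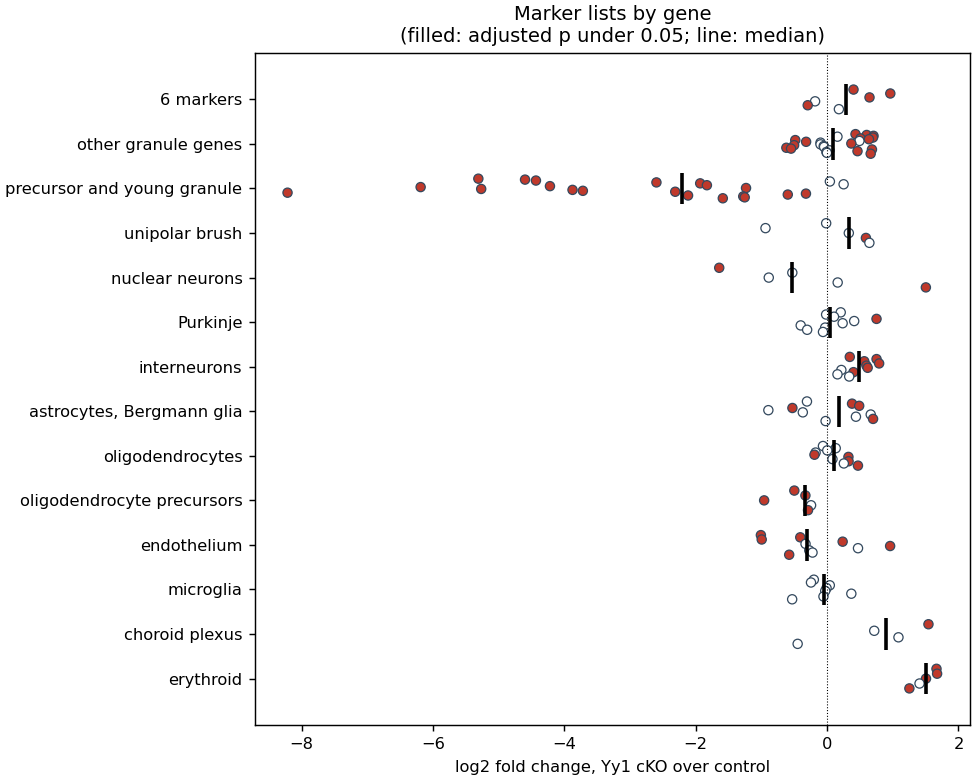
Log2 fold change of Yy1 cKO over control (x axis) of every tested gene in the marker lists (rows); filled points passed the test and vertical lines are medians. The 6 granule markers lie between -0.30 and 0.96, while most precursor and young granule genes lie far below 0, with Dcx at -3.88.

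The genes with the most similar levels over the 5 libraries were found by the root mean square difference of their log2 CPM, each centred on its own mean, among 10731 genes with at least 10 CPM on average. For Fat2 these were Mctp1, St3gal5 and Psen2 (differences of 0.014 to 0.018). For Car4 they were Gpld1 (0.034), the endothelial marker Slco1a4 (0.035) and 2010300C02Rik (0.046), and for Chn2 they were Rtn4r, Atp6v1g2 and Pitpnm1 (0.022 to 0.028). For Eps8 they were Gm12669, Gm9899 and Anp32a, for Mab21l1 Gm7964, Psmd14 and Cacnb3, and for Calb2 Gatm (0.0077), Pigk and Il18bp. No marker was among the nearest genes of another marker. The closest of the 15 pairs of markers were Eps8 with Mab21l1 at 0.11 and Fat2 with Chn2 at 0.13. With 5 libraries in 2 groups, such likeness is largely set by the group difference of each gene.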

How the data were processed

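Whole cerebella were profiled in 3 Yy1 cKO and 2 control libraries. The submitters' processing notes name STAR 2.7.1a with GRCm38, featureCounts, Trimmomatic 0.39, DESeq2 1.26.0 and FastQC 0.11.8. Their order and settings, strand included, were not stated there. The deposited table of raw counts per gene was used; the normalized table was not used here. Of 55421 identifiers 54587 matched GENCODE M21 with their version, 567 without it and 267 not at all.

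Groups came from sample titles. Counts were tested with the edgeR 4.0.16 quasi-likelihood test in R 4.3.3 (TMM, filterByExpr, robust dispersion, no covariate), with Benjamini-Hochberg adjustment over 20388 genes. The common biological coefficient of variation was 10.5%, and standard errors came from the quasi-likelihood F statistic. The script was tested on simulated counts. TPM used the union of annotated exons, and ratios within a library used CPM plus 0.5. Promoter sequences are from RefSeq (GRCm38.p6), with windows for 3 of the 6 markers. Alternatives were other scalings and filters, DESeq2 1.42.0, limma-voom (limma 3.58.1), a replicate block, an Xist covariate and leaving out each library.

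Markers, lists and rules were chosen with earlier results of these data known, so counts over them support nothing by themselves. Named were the 6 markers, relatives and partners that passed and the most abundant paralog of each family, up to 6 genes of each granule list and 3 of other lists by smallest p, and the 3 genes nearest to each marker. Fat3, Chn1, Abi1, Eomes, Calb1, Gabra6 and the genes named to complete a count were chosen after their values were seen.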

Additional observations from a re-analysis of the deposited data

How the results depend on the processing

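Over 14 alternatives the log2 fold change of Car4 stayed within 0.87 to 1.04 and that of Chn2 within 0.57 to 0.71, and both passed in all 14. Fat2 passed in 13 and Mab21l1 in 12; the calls of Fat2 (0.36) and Mab21l1 (-0.32) were lost without control 2 and that of Mab21l1 (-0.27) without control 1. Leaving out each library gave 0.36 to 0.45 for Fat2, -0.32 to -0.27 for Mab21l1, -0.27 to -0.098 for Eps8 and 0.077 to 0.29 for Calb2. Without the filter on low counts Eps8 (-0.18, adjusted p = 0.041) and Calb2 (0.19, adjusted p = 0.034) passed, which made 2 markers that fell. No direction of a marker changed in any alternative.

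The replicate numbers were not shown to pair the libraries: same-numbered libraries had deviations correlated at 0.037 and 0.013. With the replicate block, in which Yy1 cKO 3 is a level of its own and adds nothing to the contrast, Calb2 passed (0.29), 3486 genes were higher, and 1 gene of precursors and newborn granule cells rose. Scaling by totals alone gave 1432 higher genes. Leaving out libraries gave 887 to 2990 higher and 1267 to 3127 lower genes, against 2185 and 2577 in the full set, and 0 to 2 markers that fell. The cause of these shifts was not tested. Paired ratios and ratios to other granule genes kept their sign in every alternative except Calb2, at -0.070 to 0.099 when libraries were left out.

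A length chosen after seeing the data, the longest coding transcript, gave 204 TPM in Yy1 cKO and 110.2 TPM in controls for Car4, 439 and 296 for Chn2, 140 and 168 for Eps8, and 466 and 434 for Calb2, so Chn2 moved above Fat2 in both groups, and Car4 stood above Eps8 in Yy1 cKO and below it in controls. With 2 controls, the precision of every comparison rests on few libraries.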
